A study of Mus musculus with 9 samples.

Results

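Retinal RNA from mice with oxygen-induced retinopathy (OIR) was compared between animals given 32-134D, an inhibitor of hypoxia-inducible factors (HIFs), and animals given its vehicle. The groups were set by the sample labels, and the comparison was chosen with earlier results of these data known. It held 6 of the 9 mice that were sequenced, 3 treated and 3 vehicle. All were wild-type C57BL/6 mice. OIR mice received a single intraocular injection at P12, of 70 ng 32-134D in the treated group (the protocol gives the concentration as 70 ng per microlitre) or of DMSO in the vehicle group. Retinas were taken at P17, and each library is 1 mouse. In this model pups are raised for some days in high oxygen, which removes capillaries of the young retina, and are then returned to room air, where the retina that has lost its vessels becomes hypoxic and new vessels sprout from its surface. The 3 room-air mice, labelled with vehicle, were kept out of the fit and are given only beside it. The drug reached the eye once, and the RNA describes the whole retina 5 days later, and in such bulk RNA fewer cells of a type and less RNA per cell cannot be told apart.

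HIFs are transcription factors made of an oxygen-regulated alpha subunit and a constant beta subunit. Under low oxygen the alpha subunit is no longer broken down, and the pair binds short DNA elements near genes for glycolysis, for oxygen and pH balance, and for the growth of vessels. Microglia are the resident macrophages of the retina. In ischemic retina they and invading monocytes gather around the sprouting vessels and are known for complement C1q, for the receptor pair Trem2 and Tyrobp, and for lysosomal enzymes. Müller glia and astrocytes, the supporting cells of the retina, respond to injury with a set of genes known as reactive gliosis.

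The libraries carried the RNA of retina, with all 17 genes of the rod photoreceptor list past the filter on low counts and their mean log2 CPM (counts relative to the TMM-scaled library size, on a log2 scale) between -0.25 and 0.23 of the vehicle mean in all 6 mice, but treated mouse 2 stood apart from the other 5. Genes of the lens took 15.4% of its counts (95% Wilson interval 15.3% to 15.4%, counting error only), against at most 0.172% in any other mouse. Total counts of the 6 mice ranged from 16028731 to 21071371. The spread between mice, as edgeR's biological coefficient of variation, was 0.313 among the 3 treated mice, 0.132 among treated mice 5 and 10 alone, and 0.213 among the vehicle mice. By Xist and Y-linked transcripts treated mice 2 and 5 and vehicle mouse 3 were female and the others male. Counts over the main lists are therefore given for the 6 mice and also without treated mouse 2. In the 6 mice they stand beside 3.70% of all genes above and 5.35% below every vehicle mouse, and without treated mouse 2 beside 16.1% above and 17.0% below.

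No gene passed the test. Of 16926 genes tested in the 6 mice, 0 were called at an adjusted p under 0.05 by edgeR's quasi-likelihood test (0.00%), and the smallest adjusted p was 0.537. Unadjusted p was below 0.05 for 739 genes, 440 of them lower (2.60% of the genes tested) and 299 higher (1.77%) with 32-134D. Without treated mouse 2 the test called 0 of 17524 genes (0.00%), with a smallest adjusted p of 0.0665 and 2502 genes at an unadjusted p below 0.05. From those 5 mice, leaving out vehicle mouse 3 as well gave 407 called genes, vehicle mouse 6 gave 54 and treated mouse 5 gave 1, and keeping genes of very low counts gave 1747. DESeq2 called 57 genes lower (0.337%) and 18 higher (0.106%) in the same 6 mice, and limma-voom called 1. Each of the 75 genes called by DESeq2 had 3 treated values wholly on one side of the 3 vehicle values. Calls and separation come from the same 6 mice, so neither is independent support for the other. The descriptions below rest on that separation, which is not a test. With 3 mice per group and no effect of treatment, full separation is expected at shares close to those found in the 6 mice. This holds for genes and for list scores. The numbers separated are therefore no count of genes that responded to 32-134D.

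In 626 genes (3.70%) every treated mouse lay above every vehicle mouse, and in 906 genes (5.35%) every treated mouse lay below. When libraries were scaled by total counts alone, which the lens RNA of treated mouse 2 enters directly, the same split was 255 above and 1817 below. Fewer mice leave fewer values to separate, and each number grew when a mouse was left out. Both numbers grew most without treated mouse 2, and why was not tested. The genes above numbered 2829 without treated mouse 2, 1183 without treated mouse 5, 1228 without treated mouse 10, 1442 without vehicle mouse 3, 1435 without vehicle mouse 5 and 1092 without vehicle mouse 6. In the same order the genes below numbered 2986, 1548, 1469, 2046, 1545 and 1486. The median log2 fold change was 0.38 among the 626 and -0.44 among the 906, so most of these differences were small. In 154 of the lower genes, but only 56 of the higher ones, the log2 fold change passed 1 in size both with the 6 mice and without treated mouse 2.

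The gene with the smallest p in either fit was Slc15a2 (chromosome 16, 36750177 to 36784962, GRCm38), which encodes the peptide transporter PEPT2. It was singled out after its values were seen. Slc15a2 was at 4.09, 3.64 and 3.74 log2 CPM in treated mice 2, 5 and 10 and at 5.24, 5.42 and 5.33 in vehicle mice 3, 5 and 6. The groups were more than 1 log2 unit apart while mice within a group lay close together. Its log2 fold change was -1.50 ± 0.15 (SE, n = 3 per group) with an edgeR adjusted p of 0.537, and without treated mouse 2 it was -1.63 ± 0.13 with an edgeR adjusted p of 0.0665. DESeq2 gave an adjusted p of 1.3e-12 in the 6 mice. The room-air mice were at 4.89, 4.63 and 4.20, between the treated and the vehicle mice.

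In the 6 mice the list of microglia and macrophages had more members below every vehicle mouse than any other of the 44 lists, while without treated mouse 2 reactive gliosis (18 of 20) and interferon genes (16 of 20) had more. Of the 18 genes in that list, 13 were below every vehicle mouse in all 3 treated mice, against 5.35% of all genes tested, and 0 were above. Unadjusted p was below 0.05 with a lower level for 14 of the 18, against 2.60% of all genes, and DESeq2 called 11 of them, against 0.337%. The number below every vehicle mouse stayed between 13 and 15 when any 1 mouse was left out. With that count taken without treated mouse 2, 15 were below, against 17.0% of all genes, 14 had an unadjusted p below 0.05 with a lower level, against 6.48%, and DESeq2 called 13, against 1.98%. The list's median log2 fold change was -1.30 in the 6 mice and -1.44 without treated mouse 2, while the median over all genes was 0.01 and 0.00. These counts describe the list and are no test of it.

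**Figure D1:**
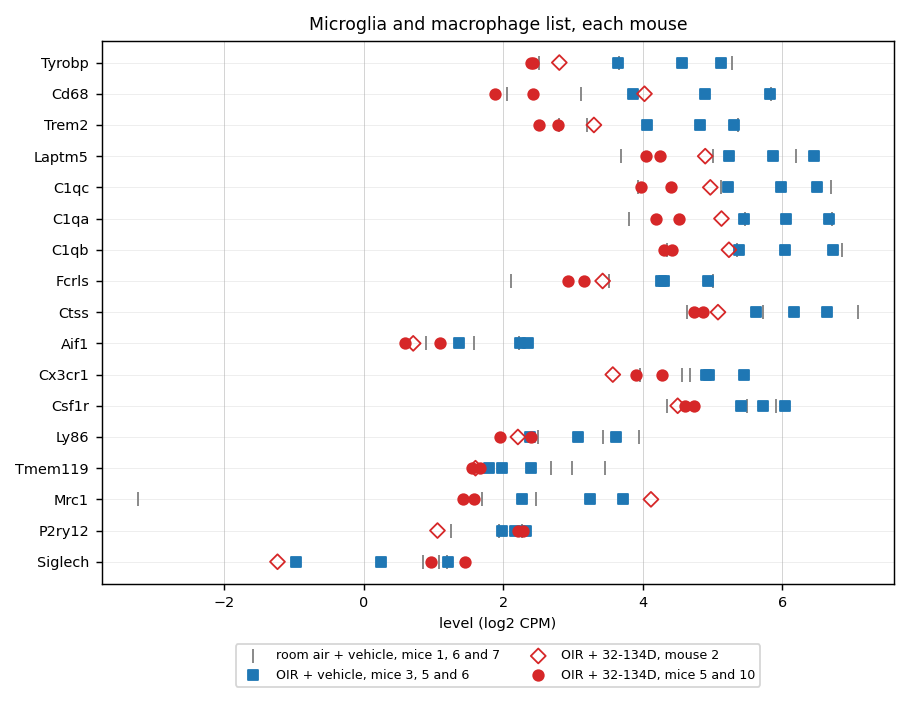
Levels of 17 of the 18 genes of the microglia and macrophage list in each mouse, in log2 CPM, ordered by log2 fold change from Tyrobp (-2.03) to Siglech (0.40). Red marks are treated mice, with treated mouse 2 as an open diamond, blue squares are vehicle mice and grey ticks are room-air mice. In 12 of the genes shown all red marks lie to the left of all blue squares.

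Trem2, a lipid-sensing receptor of microglia, and Tyrobp, the adaptor through which it signals, had the largest differences among the 13 separated members. Trem2 was at 3.30, 2.78 and 2.51 log2 CPM in treated mice 2, 5 and 10 and at 4.06, 4.83 and 5.30 in vehicle mice 3, 5 and 6. Tyrobp was at 2.80, 2.43 and 2.40 in the treated and at 3.64, 4.56 and 5.13 in the vehicle mice. In both genes treated mouse 2 was the highest of the treated mice and still under the lowest vehicle mouse. The log2 fold change was -1.93 ± 0.36 for Trem2 and -2.03 ± 0.38 for Tyrobp, and both had an edgeR adjusted p of 0.871 in the 6 mice and of 0.211 without treated mouse 2. DESeq2 gave an adjusted p of 0.00031 for each.

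The 3 chains of complement C1q, which microglia make in the retina and which tag synapses and debris for removal, lay together. C1qa was at 5.13, 4.52 and 4.19 log2 CPM in the treated mice and at 5.46, 6.06 and 6.67 in the vehicle mice, with a log2 fold change of -1.49 ± 0.36. C1qc followed at -1.49 ± 0.38. C1qb had a log2 fold change of -1.44, with treated mouse 2 at 5.24 just under vehicle mouse 3 at 5.38. Laptm5, a lysosomal membrane protein of blood-derived cells, was at 4.90, 4.24 and 4.05 in the treated and 5.24, 5.88 and 6.46 in the vehicle mice, a log2 fold change of -1.51 ± 0.35. The receptors Csf1r and Cx3cr1, on which microglial survival and guidance depend, differed by -1.13 ± 0.18 and -1.18 ± 0.24. The calcium-binding protein Aif1 (IBA1) differed by -1.29, the protease Ctss by -1.31 and the receptor Fcrls by -1.36.

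Not every microglial gene was separated. P2ry12, a purine receptor of resting microglia, was at 1.06, 2.28 and 2.22 log2 CPM in the treated mice and 1.99, 2.17 and 2.33 in the vehicle mice, and the groups overlapped. Siglech overlapped as well, with a log2 fold change of 0.40 ± 0.83. Tmem119, another gene of resting microglia, was separated by a narrow margin, with a highest treated value of 1.67 against a lowest vehicle value of 1.80. Cd68, a lysosomal protein of phagocytes, and Mrc1, the mannose receptor of macrophages, were below every vehicle mouse in treated mice 5 and 10 but not in treated mouse 2. Mrc1 was at 4.12 in treated mouse 2, above the vehicle mice at 2.27, 3.25 and 3.71, and at 1.43 and 1.58 in the other treated mice.

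The list score, the mean log2 CPM of the 18 genes relative to the mean of the 3 vehicle mice, was -0.95, -1.20 and -1.27 in treated mice 2, 5 and 10. The vehicle mice spread from -0.45 in mouse 3 through 0.02 in mouse 5 to 0.42 in mouse 6. The room-air mice covered a wider range, with 0.54 in mouse 1, -0.52 in mouse 6 and -1.65 in mouse 7. The treated scores lay inside the range of the room-air mice.

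The 10 separated genes with the largest lower values, ranked by the smaller of the log2 fold changes with and without treated mouse 2 among protein-coding genes with a mean of at least 2 log2 CPM, were mostly known from myeloid cells. They are Lyz2, the lysozyme of macrophages and neutrophils, Cd36, a scavenger and fatty acid receptor, Slc11a1, a metal transporter of phagosomes, Myo1f, a myosin of leukocytes, Mpeg1, a pore-forming protein of macrophages, Abcc3, an organic anion exporter, Cd74, the invariant chain of MHC class II, Tyrobp, C3ar1, the receptor for complement C3a, and Gpnmb, a glycoprotein of phagocytes and pigment cells. Of the 10, 2 were also on a list, Tyrobp on that of microglia and C3ar1 on that of complement.

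Lyz2 (chromosome 10, 117277331 to 117282321) was at 6.43, 3.63 and 3.60 log2 CPM in treated mice 2, 5 and 10 and at 6.51, 7.87 and 9.05 in vehicle mice 3, 5 and 6. The gap between the groups rested on treated mouse 2 and vehicle mouse 3, which were close to equal. Its log2 fold change was -2.95 ± 0.99 in the 6 mice and -4.54 ± 0.75 without treated mouse 2. Mpeg1 (chromosome 19, 12460779 to 12465284) was further apart for its spread, with 4.91, 3.89 and 4.21 in the treated and 5.86, 6.34 and 7.14 in the vehicle mice. Its log2 fold change was -2.15 ± 0.40, and -2.48 ± 0.38 without treated mouse 2, with DESeq2 adjusted p-values of 8.9e-05 and 3.1e-09. Myo1f was at 1.48, 0.87 and 0.77 in the treated and 2.61, 3.44 and 3.94 in the vehicle mice, a log2 fold change of -2.42 ± 0.41.

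Cd36 differed by -2.66 ± 0.67 on the log2 scale, Slc11a1 by -2.47 ± 0.62 and Abcc3 by -2.08 ± 0.42. Treated mouse 2 was the highest treated mouse in all 3 of these genes. In Cd74, C3ar1 and Gpnmb it nearly reached the lowest vehicle mouse, at 3.22 against 3.36, 3.26 against 3.40 and 6.83 against 6.95 log2 CPM. Their log2 fold changes of -2.04 ± 0.64, -1.95 ± 0.61 and -1.94 ± 0.60 became -2.87 ± 0.52, -2.58 ± 0.57 and -2.54 ± 0.53 without that mouse.

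**Figure D2:**
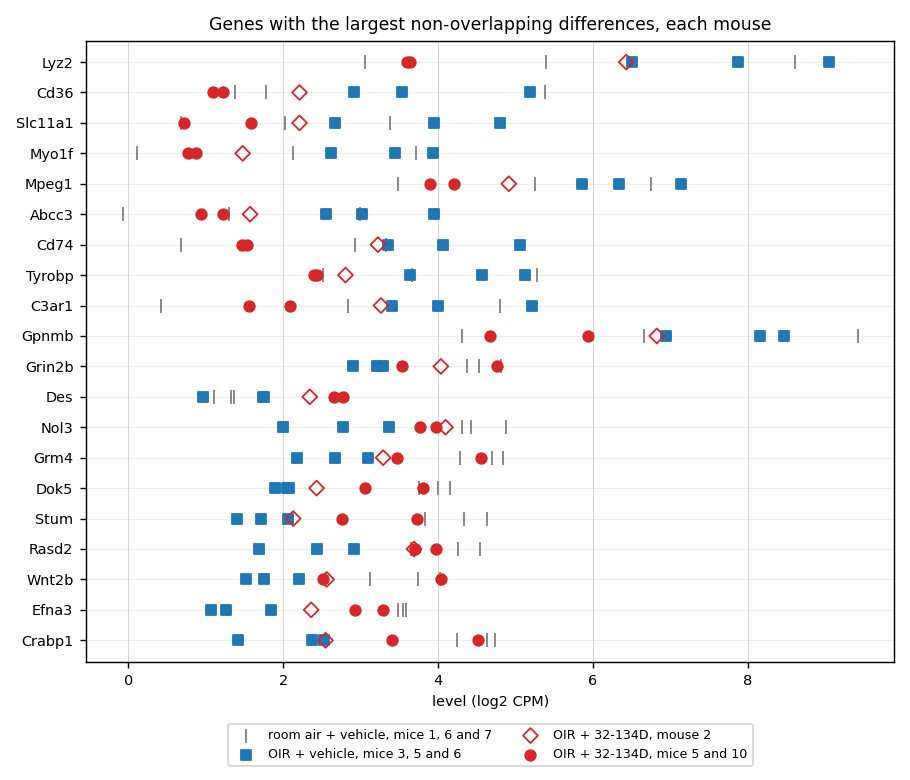
Levels in log2 CPM, in each mouse, of the 10 lower and 10 higher genes with the largest differences among those whose treated and vehicle values do not overlap. Marks are as in the plot of microglial genes. From Lyz2 to Gpnmb all red marks lie left of the blue squares, and from Grin2b to Crabp1 all lie right of them, in several genes by a narrow margin.

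The sequence just before the transcription start is shown for C1qb and Slc15a2, because both were lower in every treated mouse and both hold the letters GGAAGT, the core bound by ETS factors, of which PU.1 is the one that defines macrophages. The letters were chosen after the gene levels had been seen. Each stretch is the 100 bases before the start in RefSeq (GRCm38.p6), read 5′ to 3′ on the gene's strand, with the motif on either strand in capitals, and overlaps no exon in GENCODE M21. The C1qb stretch is chr4:136886201-136886300, minus strand, with the motif at position -53 from the start site. The Slc15a2 stretch is chr16:36784963-36785062, minus strand, with the motif at position -29. It also holds the letters ACGTG, the core of the hypoxia response element, left here in lower case. Slc15a2 is on none of the gene lists.
C1qb: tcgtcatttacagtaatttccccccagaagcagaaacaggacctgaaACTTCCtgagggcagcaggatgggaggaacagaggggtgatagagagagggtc
Slc15a2: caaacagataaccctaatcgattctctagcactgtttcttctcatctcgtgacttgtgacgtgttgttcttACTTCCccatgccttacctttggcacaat

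Over promoters of 300 bases (250 before to 50 after the start), GGAAGT on either strand was present for 9 of the 13 microglial list genes that had an entry (69.2%). It was present for 37.0% of the 646 genes with an entry that were below every vehicle mouse, for 25.2% of the 444 above every vehicle mouse, and for 26.5% of all 27025 genes in the table that had an entry. The 27025 include genes that did not pass the filter on low counts, while the separated genes all did. The share over tested genes alone was not computed, so these shares do not show an excess among the lower genes. The match describes letters in a window and is no evidence of binding.

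Other lists of immune genes followed in part. In the complement list 5 of 14 genes were below every vehicle mouse, beside 5.35% of all genes, and 0 above. The list's median log2 fold change was -0.83. The 5 genes were C1s1, C3ar1 and the 3 C1q chains, which are also on the microglial list and were already counted there. C4b was at 7.28, 5.11 and 3.84 log2 CPM in treated mice 2, 5 and 10 and 6.31, 6.97 and 7.33 in vehicle mice 3, 5 and 6. C3, the central complement protein, was at 5.45, 2.53 and 2.03 in the treated mice against 3.30, 4.31 and 5.36. In both genes treated mice 5 and 10 were below every vehicle mouse while treated mouse 2 was at the level of vehicle mouse 6. Without treated mouse 2 the log2 fold change was -2.31 ± 0.43 for C4b and -2.28 ± 0.58 for C3, and with it -0.84 ± 0.80 and -0.41 ± 0.96.

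Of 10 chemokine and cytokine genes, 3 were below every vehicle mouse, beside 5.35% of all genes. They are Vcam1, the adhesion molecule that arrests leukocytes on vessel walls (log2 fold change -0.92 ± 0.34), Il1r1, the interleukin-1 receptor (-0.90 ± 0.29), and Tlr4, the endotoxin receptor (-0.55 ± 0.32). In the interferon and MHC class I list 3 of 20 were below every vehicle mouse, beside the same 5.35%, namely Ifit1 (-1.44 ± 0.48), Ifit3 (-0.77 ± 0.23) and Rtp4 (-0.76 ± 0.29), all induced by interferon. Irf7 of the same list had a log2 fold change of 0.60 ± 0.23, with groups that overlapped. Without treated mouse 2 the counts below every vehicle mouse were 11 of 14 for complement, 8 of 10 for chemokines and 16 of 20 for interferon genes, beside 17.0% of all genes tested. The complement count again includes the C1q chains of the microglial list. S100a8, a calcium-binding protein of neutrophils, was at -0.56, -2.13 and -2.67 log2 CPM in the treated and 0.36, 2.10 and 1.60 in the vehicle mice, a low level, with a log2 fold change of -3.49 ± 0.84.

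Müller glia were the second cell type with a lower score in every treated mouse, at -0.49, -0.31 and -0.44 against -0.08, -0.14 and 0.22 in the vehicle mice. In the list 5 of 17 genes were below every vehicle mouse, beside 5.35% of all genes, and 0 above. With treated mouse 2 left out 11 of 17 were below, beside 17.0%, and 1 was above. Apoe, the lipid carrier that retinal glia secrete and that microglia also express, was at 10.64, 10.88 and 10.40 log2 CPM in the treated and 11.53, 11.85 and 12.25 in the vehicle mice. It had a log2 fold change of -1.25 ± 0.24 and a DESeq2 adjusted p of 0.00011. Kcnj10, the potassium channel Kir4.1 that clears potassium from the retina, was at 5.78, 6.09 and 6.15 against 6.49, 6.67 and 7.23, a log2 fold change of -0.82 ± 0.21. Aqp4, the water channel of glial endfeet, differed by -0.82 ± 0.29. In the astrocyte list Aldh1l1, a folate enzyme, was separated at -0.47 ± 0.12.

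Some bipolar cell genes were lower by small amounts. In the cone bipolar list 6 of 15 genes were below every vehicle mouse, beside 5.35% of all genes, and again 6 of 15 without treated mouse 2, beside 17.0%. Among the 6 were Grik1, a kainate receptor (-0.61 ± 0.16), and Scgn, a calcium sensor (-0.49 ± 0.16). In the rod bipolar list 4 of 14 were below, and 5 of 14 without treated mouse 2, including Cabp5, a calcium-binding protein (-0.55 ± 0.17), Gpr179, an anchor of the mGluR6 cascade (-0.48 ± 0.15), and Nyx, or nyctalopin (-0.33 ± 0.14). The cone bipolar score was -0.38, -0.08 and -0.14 in treated mice 2, 5 and 10 and reached down to -0.07 in vehicle mouse 5, so that the groups all but met. The rod bipolar score overlapped, at -0.23, -0.06 and -0.20 in the treated mice and 0.07, 0.08 and -0.14 in the vehicle mice, and 5 of its 14 genes had a positive log2 fold change.

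Across all 44 lists, 3 scores were below every vehicle mouse in all treated mice (6.82%), those of microglia, Müller glia and cone bipolar cells, and 1 was above (2.27%), that of tip cell and Notch genes. Leaving out a mouse raised these 4 to 22 without treated mouse 2, 7 without treated mouse 5, 9 without treated mouse 10, 8 without vehicle mouse 3, 7 without vehicle mouse 5 and 6 without vehicle mouse 6. The tip cell score all but met, at 0.0685 in treated mouse 10 and 0.0645 in vehicle mouse 6. With DESeq2 size factors, or with a prior count of 0.5, 3 scores were separated in place of 4. In many of the lists that were not separated treated mouse 2 lay apart from treated mice 5 and 10.

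**Figure D3:**
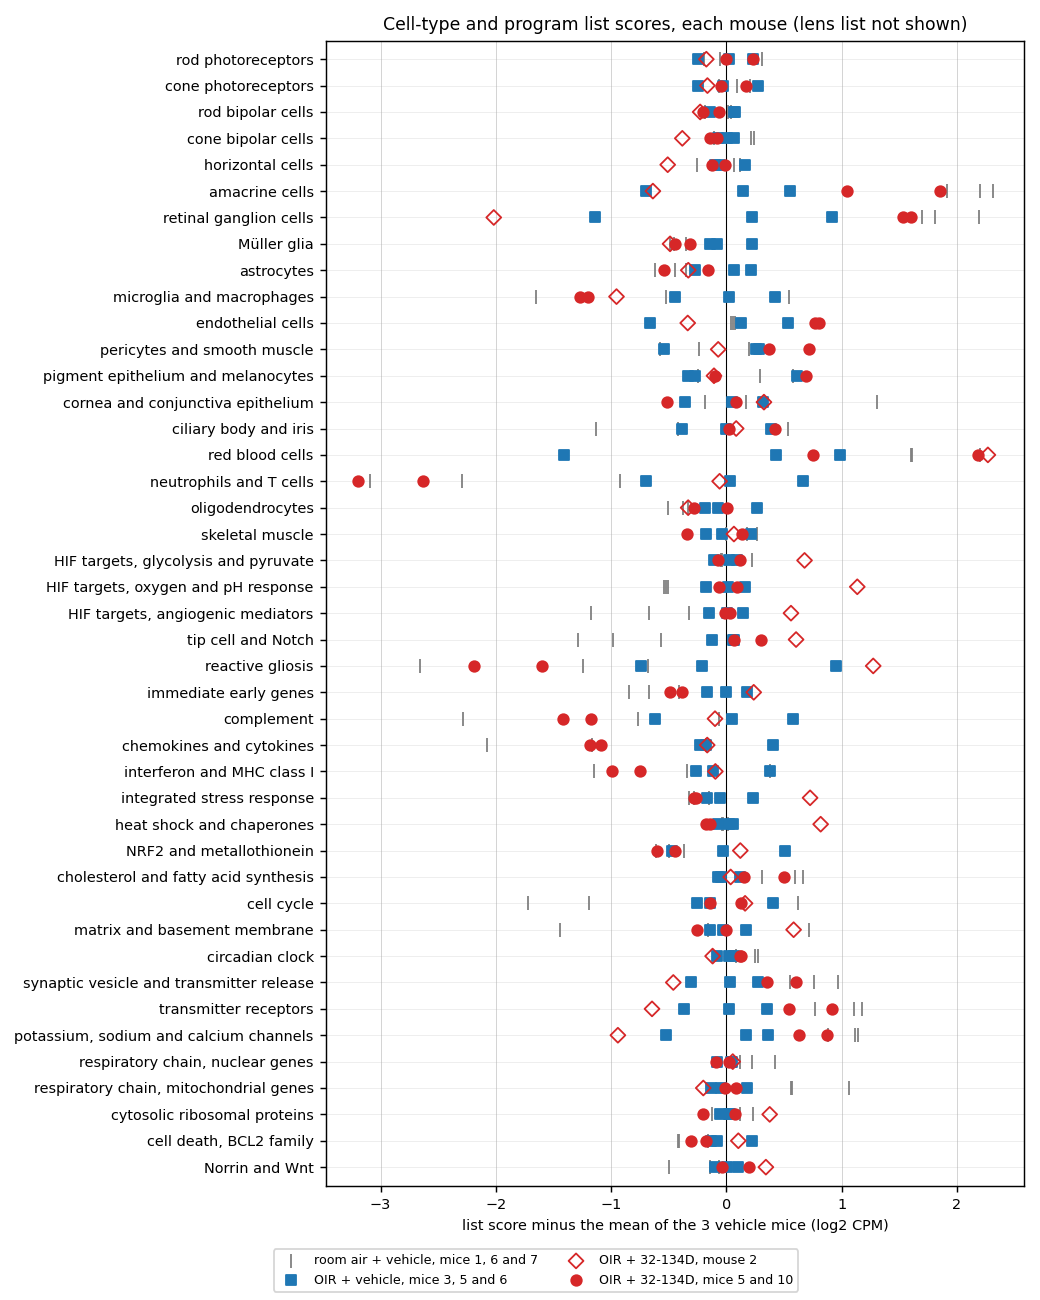
Score of each list in each mouse, as the mean log2 CPM of its genes minus the mean of the 3 vehicle mice. The lens list is left out because treated mouse 2 was at 8.26. Marks are as in the plot of microglial genes. The red marks lie left of all blue squares for microglia and macrophages, while for retinal ganglion cells and reactive gliosis the open diamond and the red circles lie on opposite sides.

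The 10 separated genes with the largest higher values were of mixed function, with smaller differences than the lower genes. They are Crabp1, a retinoic acid binding protein, Efna3, a guidance ligand of the ephrin family, Wnt2b, a Wnt ligand, Rasd2, a small GTPase of neurons, Stum, a membrane protein, Dok5, an adaptor of receptor kinases, Grm4, a metabotropic glutamate receptor, Des, the intermediate filament desmin of pericytes and muscle, Nol3, an inhibitor of cell death, and Grin2b, an NMDA receptor subunit. Crabp1 (chromosome 9, 54764748 to 54773110) was at 2.55, 3.41 and 4.51 log2 CPM in treated mice 2, 5 and 10 and at 2.52, 2.37 and 1.42 in vehicle mice 3, 5 and 6. Treated mouse 2 and vehicle mouse 3 all but met. The room-air mice were at 4.63, 4.24 and 4.74, above all vehicle mice, and the log2 fold change was 1.56 ± 0.55.

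Efna3 was at 2.36, 2.93 and 3.29 in the treated and 1.84, 1.26 and 1.06 in the vehicle mice, with a log2 fold change of 1.52 ± 0.35 and a DESeq2 adjusted p of 0.026. Rasd2 was at 3.69, 3.70 and 3.97 in the treated and 2.91, 2.43 and 1.69 in the vehicle mice, with a log2 fold change of 1.39 ± 0.32 and a DESeq2 adjusted p of 0.019. In Rasd2 the treated mice were close together and the spread was among the vehicle mice. Des was at 2.34, 2.77 and 2.66 against 1.76, 1.74 and 0.97, a log2 fold change of 1.10 ± 0.30. The other log2 fold changes were 1.40 ± 0.48 for Wnt2b, 1.30 ± 0.45 for Stum, 1.22 ± 0.36 for Dok5, 1.21 ± 0.41 for Grm4, 1.15 ± 0.35 for Nol3 and 1.07 ± 0.32 for Grin2b. None of these had an edgeR adjusted p under 0.05 in either fit. In all 10 genes but Des the room-air mean was above the vehicle mean, such as 3.54 against 1.39 log2 CPM in Efna3. In Des the room-air mean was 1.27 against 1.49.

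In the 6 mice cholesterol and fatty acid synthesis was the list with the most members above every vehicle mouse, while without treated mouse 2 the lists of ganglion cells, amacrine cells, channels, transmitter receptors and endothelium had more. Of the 19 cholesterol and fatty acid genes, 7 were above every vehicle mouse, against 3.70% of all genes, and 1, Acaca, was below. The 7 included Insig1, which holds back the sterol sensor (0.64 ± 0.22), and Srebf2, the transcription factor that drives the pathway (0.43 ± 0.18). Insig1 was at 4.79, 5.20 and 5.58 log2 CPM in the treated and 4.77, 4.43 and 4.55 in the vehicle mice. The room-air mice were at 5.25, 6.03 and 5.92. In the fit without treated mouse 2, 9 of 19 were above, beside 16.1% of all genes, and 7 genes had an unadjusted p below 0.05 with a higher level, against 7.80% of all genes. The list's median log2 fold change was 0.25, and its score overlapped between the groups, with treated mouse 2 at 0.04 and vehicle mouse 3 at 0.12.

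A few vessel genes were separated, in lists whose counts were small. The tip cell and Notch list, which holds genes of the leading cell of a sprout, had 3 of 17 members above every vehicle mouse, beside 3.70% of all genes, and 1 below (6 above and 2 below without treated mouse 2), and its score was 0.60, 0.30 and 0.07 in treated mice 2, 5 and 10 against at most 0.06 in the vehicle mice. The 3 were Unc5b, the netrin receptor of tip cells (0.79 ± 0.21), Apln, the peptide apelin (0.88 ± 0.31, and 0.52 ± 0.21 without treated mouse 2), and Hey1, a target of Notch (0.30 ± 0.14). The 1 below was Hes1, also on the Müller glia list. Unc5b was at 5.48, 5.27 and 5.25 log2 CPM in the treated and 4.93, 4.47 and 4.15 in the vehicle mice. In the endothelial list, whose score overlapped, 1 of 19 was above, Plvap, a protein of leaky vessel walls (0.94 ± 0.30), and 1 was below, Flt1, a receptor for VEGF (-0.36 ± 0.11). In the matrix and basement membrane list 3 of 23 were above, namely Col4a1 (1.20 ± 0.44), Lamb1 (0.62 ± 0.26) and Col6a2 (0.58 ± 0.26), which encode chains of collagen IV, laminin and collagen VI. Col4a1 was at 0.69 ± 0.31 without treated mouse 2. The matrix list then had 4 genes above and 7 below, and its median log2 fold change went from 0.18 to -0.03. Once treated mouse 2 was left out, 11 of 19 endothelial genes were above every vehicle mouse, beside 16.1% of all genes tested.

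Targets of HIF were not lower with 32-134D as groups. All 24 genes of the oxygen and pH response list had a positive log2 fold change in the 6 mice, with a median of 0.47, and the medians of the glycolysis and the angiogenic lists were 0.28 and 0.45. Without treated mouse 2 these medians were 0.11, 0.00 and 0.16, with 17 of 24, 11 of 19 and 13 of 22 genes positive. The higher level belonged mostly to treated mouse 2. Lens genes took 15.4% of the counts of that mouse, and how far lens RNA enters its HIF target levels was not tested. In treated mouse 2 alone 23 of 24 oxygen and pH, 17 of 19 glycolysis and 9 of 22 angiogenic genes were above every vehicle mouse. This stood beside 27.3% of all genes, and 0, 1 and 4 were below every vehicle mouse, beside 29.6%. Treated mice 5 and 10 were both above every vehicle mouse in 4, 2 and 6 genes, beside 16.1% of all genes. They were both below in 2, 3 and 5, beside 17.0%.

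**Figure D4:**
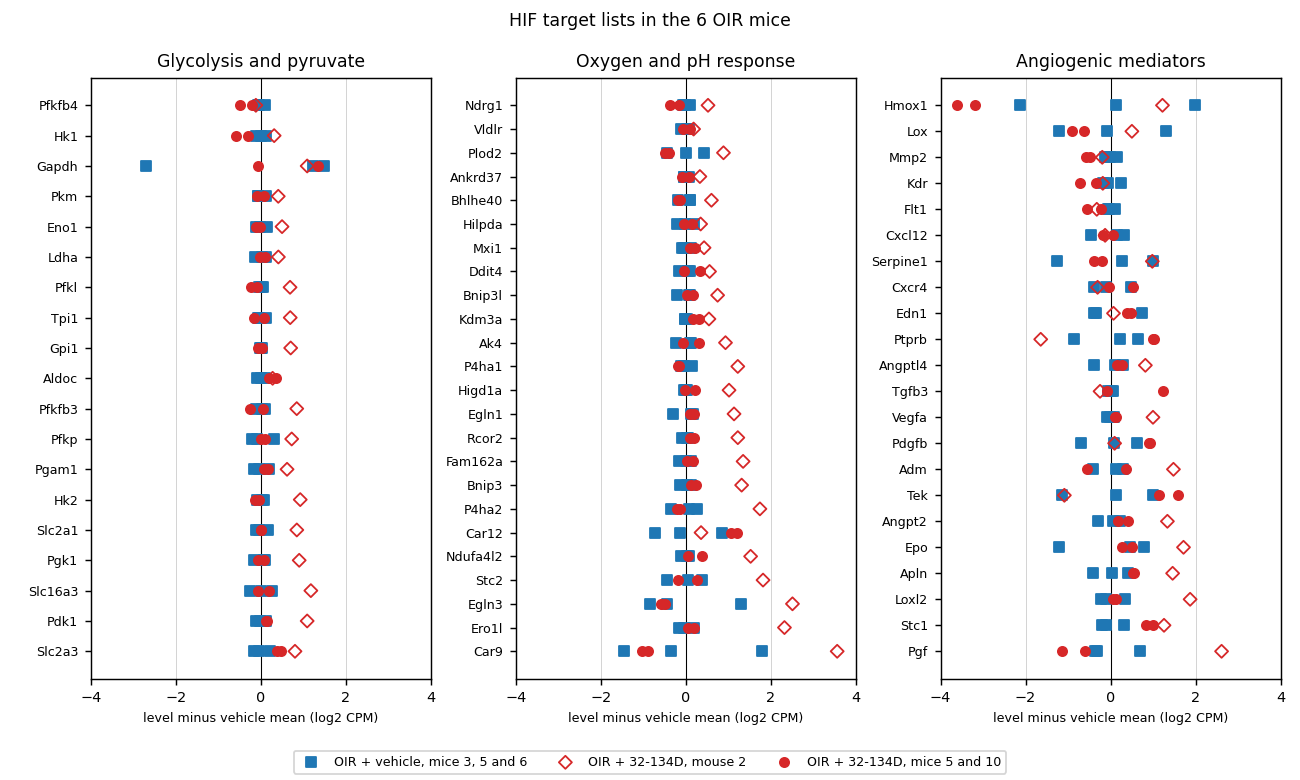
Level of each gene of the 3 HIF target lists in the 6 OIR mice, as log2 CPM minus the mean of the 3 vehicle mice, ordered by log2 fold change with the lowest at the top. Open diamonds (treated mouse 2) lie to the right of the blue squares in most glycolysis and oxygen response genes. Filled red circles (treated mice 5 and 10) lie both right of all blue squares in 2, 4 and 6 genes of the 3 panels, beside 16.1% of all genes. They lie both left of them in 3, 2 and 5, beside 17.0%.

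Ero1l, an oxidase of protein folding, was at 7.85, 5.71 and 5.59 log2 CPM in treated mice 2, 5 and 10 and at 5.49, 5.37 and 5.73 in vehicle mice 3, 5 and 6. Treated mouse 2 was more than 2 log2 units above the vehicle mice and the other treated mice were within their range. The log2 fold change was 1.25 ± 0.61, and 0.13 ± 0.13 without treated mouse 2. Egln3, the prolyl hydroxylase PHD3 that marks HIF for breakdown, went from 0.91 ± 0.97 to -0.86 ± 0.60 when that mouse was left out. Pgf, the placental growth factor, went from 1.19 ± 0.99 to -0.94 ± 0.43.

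Of 19 glycolysis, 24 oxygen and pH and 22 angiogenic genes, 2, 3 and 3 were above every vehicle mouse, beside 3.70% of all genes, and 1, 0 and 2 were below, beside 5.35%. In the oxygen and pH list the separated genes were Bnip3, a receptor for removal of mitochondria, Kdm3a, a histone demethylase, and Rcor2, a corepressor subunit, with log2 fold changes of 0.66 ± 0.32, 0.36 ± 0.11 and 0.61 ± 0.31. Without treated mouse 2 these were 0.19 ± 0.11, 0.27 ± 0.09 and 0.17 ± 0.14, and Bnip3 all but met, at 7.15 in both treated mouse 10 and vehicle mouse 6. Kdm3a was at 6.87, 6.64 and 6.50 log2 CPM in the treated and 6.30, 6.36 and 6.30 in the vehicle mice. In the glycolysis list the glucose transporter Slc2a3 (0.56 ± 0.15) and the aldolase Aldoc (0.28 ± 0.11) were above every vehicle mouse and the regulator Pfkfb4 (-0.27 ± 0.16) was below. Slc2a3 was at 7.17, 6.75 and 6.85 in the treated and 6.58, 6.21 and 6.31 in the vehicle mice.

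Among angiogenic mediators Vegfa, Apln and Stc1 were above every vehicle mouse and Mmp2 and Flt1 below. Vegfa was at 8.86 in treated mouse 2 but at 7.98 and 7.97 in treated mice 5 and 10, next to 7.94 in vehicle mouse 5, and its log2 fold change was 0.47 ± 0.25 with and 0.13 ± 0.10 without treated mouse 2. Stc1, or stanniocalcin-1, a secreted hormone, was the most separated of the 3, at 3.84, 3.42 and 3.58 in the treated and 2.90, 2.37 and 2.48 in the vehicle mice. Its log2 fold change was 1.04 ± 0.22 (edgeR adjusted p = 0.892 and DESeq2 adjusted p = 0.017 in the 6 mice). Mmp2, a gelatinase that opens the basement membrane, differed by -0.41 ± 0.14. Hmox1, the inducible heme oxygenase, was at 8.12, 3.70 and 3.28 in the treated and at 4.78, 7.03 and 8.88 in the vehicle mice. It spread over more than 4 log2 units within each group, and its log2 fold change was -1.07 ± 1.46, or -4.22 ± 1.12 without treated mouse 2.

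Start-site sequences of Hk2 (a hexokinase), Ldha (lactate dehydrogenase A) and P4ha1 (collagen prolyl hydroxylase) hold the letters of the short element through which HIF acts. They come from the HIF target lists. They were chosen because treated mouse 2 was above every vehicle mouse in all 3, with 8.42, 11.41 and 7.60 log2 CPM, while treated mice 5 and 10 lay inside or just below the vehicle range. The letters ACGTG, the core of the hypoxia response element, stand in capitals on either strand. The stretches are the 100 bases before the RefSeq start (GRCm38.p6) at chr6:82774455-82774554, minus strand, at chr7:46845704-46845803, plus strand, and at chr10:59323196-59323295, plus strand, and none overlaps an exon in GENCODE M21.
Hk2: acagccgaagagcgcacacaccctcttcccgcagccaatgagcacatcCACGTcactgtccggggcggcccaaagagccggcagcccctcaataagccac
Ldha: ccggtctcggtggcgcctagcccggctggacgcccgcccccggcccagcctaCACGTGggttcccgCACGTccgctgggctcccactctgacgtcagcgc
P4ha1: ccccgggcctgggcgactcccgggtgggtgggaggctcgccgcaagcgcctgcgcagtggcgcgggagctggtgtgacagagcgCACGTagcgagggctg

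In the Ldha stretch the palindromic CACGTG counts once on each strand, which gives 3 matches. That stretch lies inside the gene as placed in the deposited counts (46841475 to 46855627), not just before its edge. Other transcripts of Ldha may therefore start elsewhere. Over the 300-base promoters ACGTG was present for 77.8% of the 18 oxygen and pH genes and 63.2% of the 19 glycolysis genes with an entry. It was present for 18.2% of the 11 angiogenic genes and 21.8% of all 27025 genes with an entry. Those 27025 again include genes that did not pass the filter on low counts. The shares were 28.4% among genes above every vehicle mouse, 26.6% among those below and 15.4% of the microglial genes.

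Several lists lay on one side of the vehicle mice in treated mice 5 and 10 and on the other side in treated mouse 2. Across all genes, both mice 5 and 10 were above and mouse 2 was below every vehicle mouse in 7.22%, and the reverse held in 5.69%. Retinal ganglion cell genes followed the first pattern in 15 of 18 and reactive gliosis genes the second in 14 of 20. Amacrine genes followed the first in 9 of 19, ion channel genes in 12 of 20 and transmitter receptor genes in 8 of 21.

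Pou4f1, the transcription factor BRN3A of ganglion cells, was at -0.70, 5.31 and 5.59 log2 CPM in treated mice 2, 5 and 10, at 4.55, 3.24 and 1.42 in vehicle mice 3, 5 and 6, and at 5.65, 5.80 and 6.31 in the room-air mice. Treated mice 5 and 10 were just under the room-air mice, and treated mouse 2 had almost none of the transcript. The log2 fold change was 1.33 ± 1.28 in the 6 mice and 1.92 ± 0.68 without treated mouse 2, with an edgeR adjusted p of 0.277 in the latter. Nrn1, or neuritin, was at -0.86, 5.01 and 5.08 against 4.24, 3.43 and 1.42. Over the list the median log2 fold change was 0.85 with and 1.37 without treated mouse 2, and without it 18 of 18 genes were above every vehicle mouse, beside 16.1% of all genes. DESeq2 then called 6 of the 18 higher, against 1.97% of all genes.

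Of the amacrine genes 18 of 19 were above every vehicle mouse without treated mouse 2, beside 16.1% of all genes. Slc18a3, the vesicular acetylcholine transporter of starburst cells, was at 0.87 and 4.23 log2 CPM in treated mice 5 and 10, so these too differed. It was at most 0.46 in treated mouse 2 and the vehicle mice and between 4.52 and 5.24 in the room-air mice, with a log2 fold change of 3.26 ± 1.22. Vip, a neuropeptide of amacrine cells, was at -1.75, 1.33 and 2.95 in the treated and 0.48, -1.37 and -2.35 in the vehicle mice, a log2 fold change of 2.66 ± 1.29.

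Lcn2, the iron-binding lipocalin of reactive glia and neutrophils, was at 10.08, 3.46 and 2.95 log2 CPM in treated mice 2, 5 and 10 and at 5.80, 6.64 and 8.85 in the vehicle mice. Treated mouse 2 was the highest of all 6 and the other treated mice were the lowest. Its log2 fold change turned from 0.83 ± 1.77 to -4.47 ± 0.98 when treated mouse 2 was left out, with an edgeR adjusted p of 0.211 in the latter. Serpina3n, a protease inhibitor of reactive astrocytes, turned from 0.13 ± 1.40 to -3.19 ± 0.87. In the gliosis list 18 of 20 genes were below every vehicle mouse without treated mouse 2, beside 17.0% of all genes, and the median log2 fold change was -2.06 there against -0.17 with it.

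**Figure D5:**
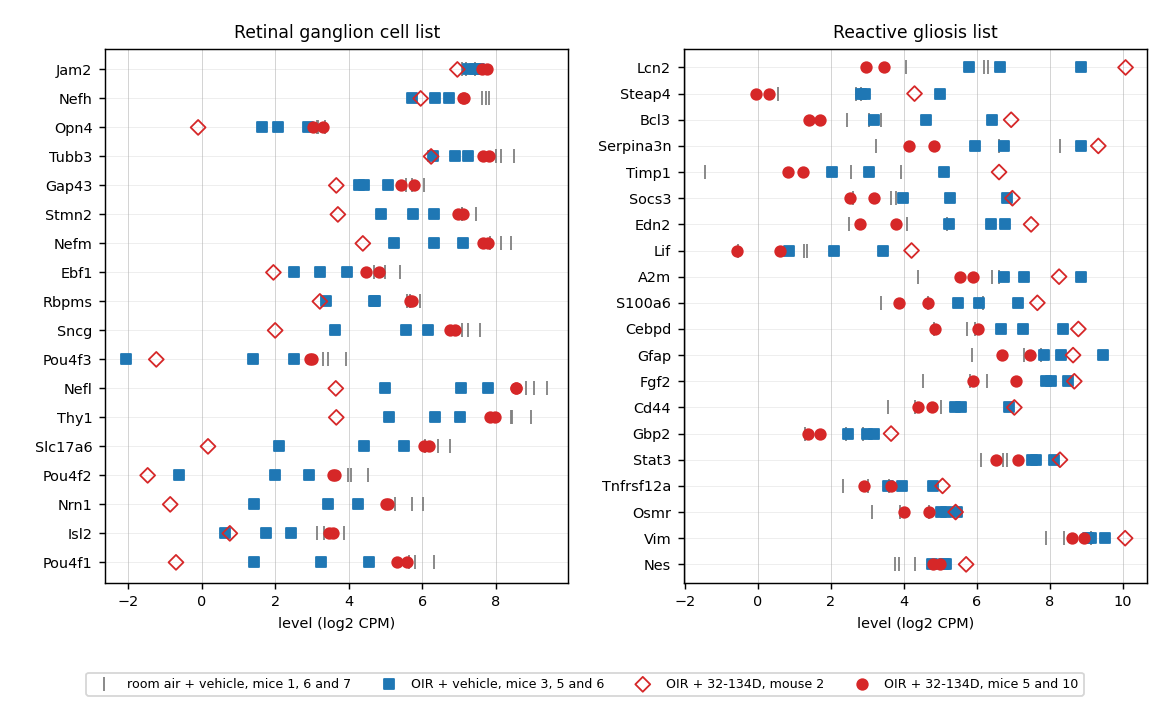
Levels of the 18 retinal ganglion cell genes (left) and the 20 reactive gliosis genes (right) in each mouse, in log2 CPM. Marks are as in the plot of microglial genes. Treated mouse 2 (open diamond) was at 5.96 for Nefh and between -1.47 and 6.96 over the ganglion cell list, and in 14 of 20 gliosis genes it lies right of all blue squares while both filled red circles lie left of them.

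The vehicle mice were themselves graded along the same lists. The ganglion cell score was 0.91, 0.22 and -1.14 in vehicle mice 3, 5 and 6, and the gliosis score was -0.74, -0.21 and 0.95. The microglial score ran in the direction of gliosis among the vehicle mice but not in treated mouse 2, which had a gliosis score of 1.27 and a microglial score of -0.95. What part these differences have in the results above was not tested.

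The lists of rods, horizontal cells, pigment epithelium, cell cycle, respiratory chain, ribosomal proteins, heat shock and the integrated stress response had 0 members above every vehicle mouse in the 6 mice, beside 3.70% of all genes. The median log2 fold change was 0.00 for 17 rod genes, -0.02 for 22 nuclear respiratory chain genes, -0.05 for 12 mitochondrial genes and 0.09 for 22 ribosomal protein genes, which became -0.02 when libraries were scaled by total counts. The scores of all these lists overlapped between the groups in the 6 mice. Without treated mouse 2 the scores of heat shock and the integrated stress response were below every vehicle mouse. Each then had 5 of 16 genes below, beside 17.0% of all genes, and 1 and 0 above. Pigment epithelium then had 5 of 13 genes above, beside 16.1%, and 0 below. The other scores still overlapped. Of the immediate early genes Egr3 (-1.22 ± 0.35) and Arc (-0.87 ± 0.38), both induced by neuronal activity, were below every vehicle mouse, and the other 18 overlapped. In the clock list Ciart (0.64 ± 0.18) and Cry2 (0.18 ± 0.09) were above and Per2 (-0.31 ± 0.14) was below. Aqp1, a water channel on the list of ciliary body and iris, was above every vehicle mouse at 0.77 ± 0.28. All 5 red blood cell genes tested had a positive log2 fold change without being separated, with a median of 1.57.

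In the lists not yet named single genes were separated. Of 13 pericyte and smooth muscle genes, 1 was above every vehicle mouse, the desmin gene described above. Among the Norrin and Wnt genes Tspan12, a coreceptor for norrin (0.29 ± 0.13), was above, and Tcf7, a Wnt effector (-0.61 ± 0.26), and Ndp, norrin itself (-0.28 ± 0.17), were below. Mbp of myelin (-0.22 ± 0.11), the pentose phosphate enzyme G6pdx (-0.09 ± 0.08), the cell death gene Bbc3 (-0.29 ± 0.13) and Tpm3 on the horizontal cell list (-0.23 ± 0.10) were below every vehicle mouse, each the only separated member of its list. The lists of cones, cornea and conjunctiva, skeletal muscle and transmitter release had 0 separated members in the 6 mice. The lens list had none either, since only treated mouse 2 was high in it. Without treated mouse 2, 7 of 19 transmitter release and 2 of 14 cone genes were above, beside 16.1% of all genes, and 0 and 1 below.

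Exons of Cd74, Des, Efna3, Grin2b, Nol3, Aldh1l1, Vcam1, Rtp4, Stc1, Bnip3, Cry2, Nrn1, G6pdx, Tspan12 and Col4a1 overlap an exon of another annotated gene. Since it is not known whether counting used strand, part of their counts may come from that gene.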

How the data were processed

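Retinal total RNA (miRNeasy kit) of 9 mice was sequenced as bulk libraries, 1 per mouse, and the 3 treated and 3 vehicle OIR mice were compared. The authors deposited raw read counts per gene (54532 genes, 1 column per mouse). The submitters' processing notes name HISAT and CASAVA, and the counting tool, annotation release and strand setting are not given in the sources used here. Gene positions match GRCm38, since 98.3% of the identifiers in GENCODE M21 have the same position. Total counts of 16028731 to 21071371 per mouse set the counting precision.

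Counts were filtered with edgeR's filterByExpr and scaled by TMM, and edgeR 4.0.16 (R 4.3.3) fitted its two-sided quasi-likelihood test to these 6 mice alone, then without treated mouse 2. P-values were adjusted by Benjamini-Hochberg over all genes tested, with a threshold of 0.05. The SE is the log2 fold change divided by the root of F. Log2 CPM used a prior count of 2, and all 9 mice and the counts without treated mouse 2 use the scale of the 6. Being above or below every vehicle mouse is a description. The adjusted p-values of single genes come from edgeR or, where named, DESeq2 1.42.0. The fitting was tested on simulated data with less spread between mice than here and no library like treated mouse 2. That test therefore does not gauge the numbers of genes called here. Alternatives were DESeq2, limma-voom 3.58.1 with sample weights, other scalings and filters, a term for sex, all 9 mice in the fit, lens genes taken out and each mouse left out.

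The comparison and the 44 gene lists (727 entries, 724 matched to the table) were chosen with earlier results of these data known. Named genes are the 10 largest differences per direction (ranked by the smaller size with and without treated mouse 2, protein coding, mean of at least 2 log2 CPM), up to 3 separated genes per list and the HIF targets. Others, Slc15a2 included, were chosen after their values were seen. Sex was read from Xist and Y-linked genes. Of the 6 pairs of mice within the treated and the vehicle group, none held copies, with equal counts in at most 0.463% of genes. The labels do not say whether mice shared a litter. Some genes are not reported here by name, and they stay in the counts and medians of their lists.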

Additional observations from a re-analysis of the deposited data

How the results depend on the processing

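No paired analysis was possible because the treated and vehicle groups share only 1 replicate number. In the 6 mice edgeR's count of called genes stayed at 0 under every other scaling, filter and covariate and whichever mouse was left out (0 to 0), while DESeq2 called 75, limma-voom 1 and an unadjusted p below 0.05 took 739. Without treated mouse 2 the count of 0 became 693 with DESeq2, 1 with limma-voom, 1747 with no filter, 1 with robust estimation, 1 with sex as a term and 2502 at an unadjusted p below 0.05, and ranged from 0 to 407 with a further mouse left out (where 1 treated mouse remained, it was assumed to vary like the vehicle mice). The cause was not tested. Genes above every vehicle mouse numbered 255 and genes below 1817 with total counts, and 1092 to 2829 and 1469 to 2986 with a mouse left out. The 4 separated list scores became 6 to 22 with a mouse left out and 3 to 6 otherwise, and the median of all genes moved to -0.09 with total counts. The microglial count stayed at 13 to 15 throughout. Of the log2 fold changes of named genes, 935 values kept direction and side, 18 passed the threshold anew and 15 changed sign. With limma-voom Egln3 was at -0.26, Lcn2 at -3.28, Pgf at -0.72 and Serpina3n at -2.18, and with total counts Serpina3n was at -0.15. With a mouse left out C3 ranged from -2.28 to 0.27, Egln3 from -0.86 to 1.88, Hmox1 from -4.22 to 0.34, Lcn2 from -4.47 to 2.24, Pgf from -0.94 to 1.69 and Serpina3n from -3.19 to 1.45. At these depths S100a8, Slc18a3 and Vip rest on few counts in several mice.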
